A study of Macaca mulatta with 24 samples.

Results

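Genes of the crypt stem cell compartment and of the WNT pathway were followed in the colon of rhesus macaques after total-body irradiation (TBI). All probes carrying the symbol of LGR5, ASCL2, OLFM4, SMOC2, RNF43, AXIN2, EPHB2, SOX9, MYC or CD44 were taken. The symbols found 7 of these 10 genes, read by 13 of the 43603 transcript probes of the array. ASCL2 stood in the array files under a LOC number that RefSeq pairs with this gene and was added, so that 8 genes and 14 probes are described. SMOC2 and AXIN2 were not analysed here.

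The animals were 24 young-adult male macaques, each with 1 array. A sham-irradiated group of 4 controls, labelled day 4, served every day. The other animals were exposed once, over the whole body and uniformly, to 6.7 or 7.4 Gy of cobalt-60 gamma rays, and were killed on day 4 (4 animals per dose), day 7 (4 per dose) or day 12 (2 per dose). RNA came from a piece of the whole colon wall, which holds epithelium, immune cells, stroma and muscle. In such bulk tissue, fewer cells of a type and less RNA per cell cannot be told apart.

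Values are log2 signals relative to the 75th percentile of their own array, so a difference of 1 is a 2-fold difference. Per array, 66.7% to 85.0% of the probes gave a signal well above background, and each of 8 markers of the colon epithelium did so in every group. The arrays sat on 6 slides with 4 positions each, and position went with group. All controls were in position 1, as were replicates 1 and 2 of 6.7 Gy on day 4, the other day 4 arrays were in position 2, and the later ones were in positions 3 and 4. Position therefore cannot be told apart from the difference between the later days and the controls or day 4. At 7.4 Gy on day 4, every array was in position 2 and every control in position 1. Positions 1 and 2 met only within the 6.7 Gy day 4 group, where they also differed in slide and scan day. Only through those arrays could position be fitted for the comparison at 7.4 Gy.

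The colon epithelium renews from stem cells at the base of its crypts. WNT ligands, whose signal R-spondins strengthen, stabilize beta-catenin there and switch on target genes that keep the cells dividing and undifferentiated. Cells that move up the crypt lose this signal and mature into absorptive or goblet cells. The crypt base is known for its sensitivity to radiation and for its capacity to regenerate. Several WNT targets, among them MYC and CD44, are also expressed outside the crypt.

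**Figure D1:**
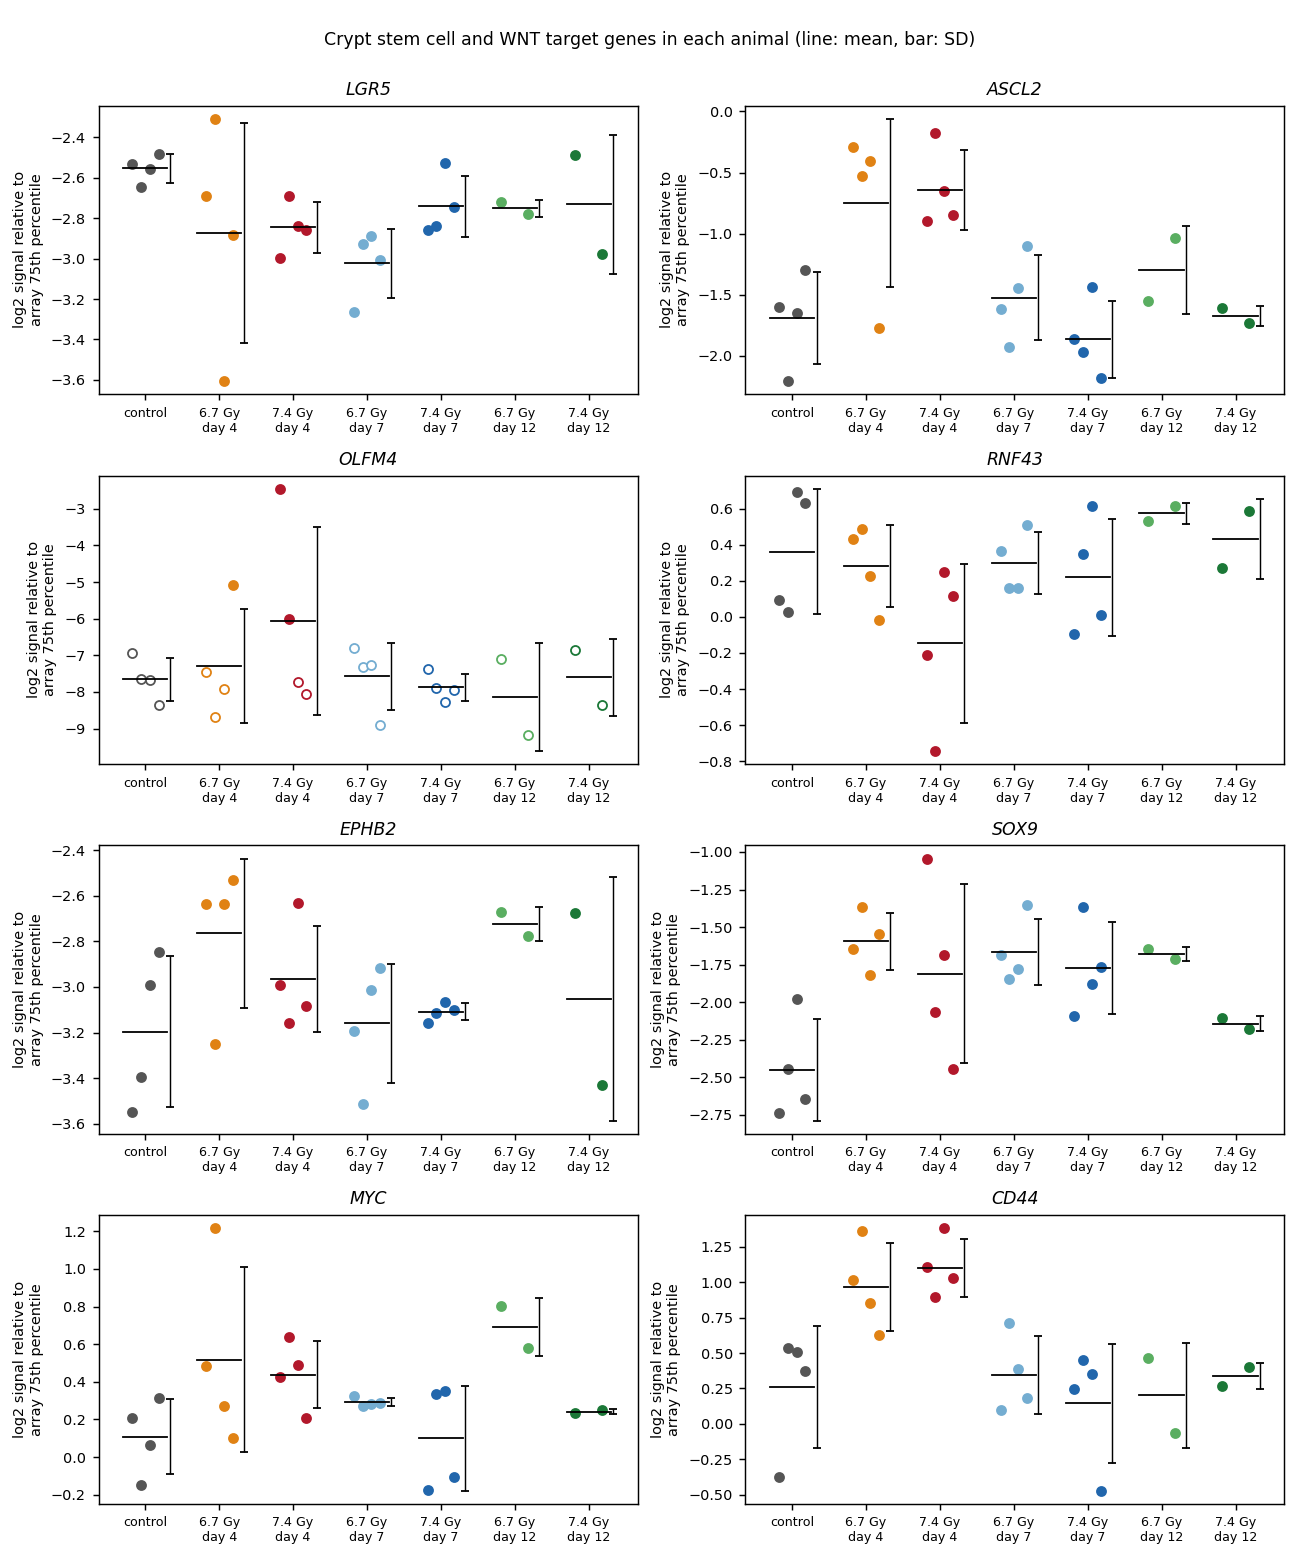
Log2 signal relative to the 75th percentile of the array (vertical axis) in each animal of the 7 groups (horizontal axis) for the probe that stands for each gene, with the mean (line) and SD (bar); open circles were not well above background. ASCL2 and CD44 were higher on day 4 than on days 7 and 12, and most OLFM4 values were not above background.

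The question put to each gene was whether its level after TBI differed from the unirradiated colon. The test was limma's moderated linear model over all 24 arrays, two-sided, with Benjamini-Hochberg adjustment over the 38209 probes fitted, and a gene passed at an adjusted p under 0.05. The probe with the highest mean stood for a gene. All 6 comparisons shared the same 4 control arrays.

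On day 4, ASCL2 and SOX9 rose after 6.7-Gy TBI, and ASCL2 and CD44 rose after 7.4-Gy TBI. No gene of the group fell. Passing higher were thus 2 of 8 genes at each dose, where 4.49% of all probes passed as higher and 5.21% as lower at 6.7 Gy, and 8.33% as higher and 11.6% as lower at 7.4 Gy. Counted by probe like these shares, 2 of the 13 tested probes of the genes passed as higher at 6.7 Gy and 3 at 7.4 Gy. The median change over the 8 genes was 0.42 at 6.7 Gy and 0.49 at 7.4 Gy on the log2 scale, against -0.04 and -0.03 over the 13457 genes fitted. These medians and those below include OLFM4, which was well above background on some day 4 arrays only and on no control. Its change at 7.4 Gy lay above the median, so that median would be lower without it.

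On day 7, none of the 8 genes passed at either dose, where 0.393% of all probes passed at 6.7 Gy and 0.523% at 7.4 Gy. An unadjusted p under 0.05 was reached by 2 genes at 6.7 Gy, LGR5 below and SOX9 above control, and by SOX9 alone at 7.4 Gy, against 9.62% and 11% of all probes. On day 12, with 2 animals per dose, none of the 8 passed, where 0.0183% of all probes passed at 6.7 Gy and 0.0262% at 7.4 Gy. An unadjusted p under 0.05 was reached there by MYC and SOX9 at 6.7 Gy, both above control, and by 0 genes at 7.4 Gy, against 7.11% and 6.88% of all probes. The methods' t-test with Benjamini-Hochberg adjustment also passed 0 of the 8 genes in each of these 4 comparisons. The median change of the genes on day 7 was 0.09 at 6.7 Gy and -0.13 at 7.4 Gy. On day 12 it was 0.30 at the lower and 0.07 at the higher dose.

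**Figure D2:**
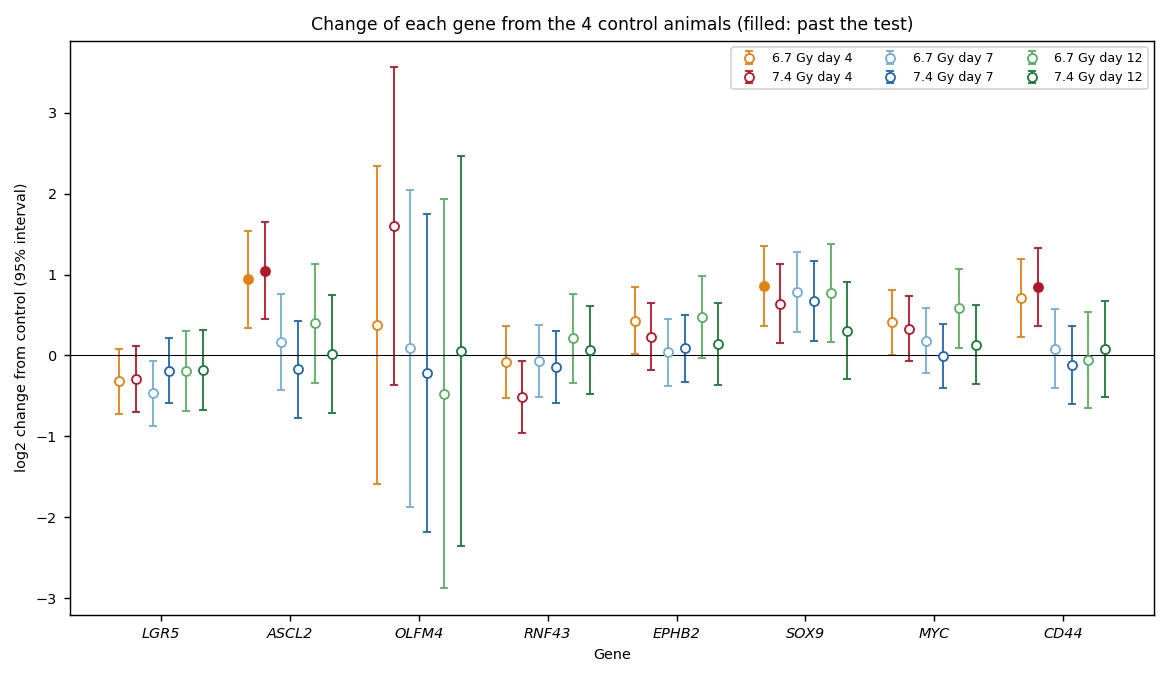
Log2 change from the 4 controls (vertical axis, with 95% interval) of the 8 genes (horizontal axis) in the 6 irradiated groups; filled symbols passed the test. The filled symbols are ASCL2 at both doses, SOX9 at 6.7 Gy and CD44 at 7.4 Gy, all on day 4, and the OLFM4 intervals are the widest.

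The first genes are those used to mark the stem cells themselves. LGR5, the R-spondin receptor that marks the crypt base columnar cells, read -2.53, -2.65, -2.55 and -2.48 in the controls. After 6.7 Gy it read -2.69, -2.31, -3.61 and -2.88 on day 4 and -3.27, -2.93, -2.89 and -3.01 on day 7. After 7.4 Gy it read -2.99, -2.69, -2.84 and -2.86 on day 4 and -2.86, -2.84, -2.53 and -2.75 on day 7. The controls lay within a narrow band, and all arrays of 7.4 Gy on day 4 and of 6.7 Gy on day 7 lay below it. On day 12 it read -2.72 and -2.78 after 6.7 Gy, both below the controls, and -2.49 and -2.97 after 7.4 Gy. The lowest mean was that of 6.7 Gy on day 7, -3.02 ± 0.17 (SD, n = 4) against -2.55 ± 0.07 in the controls, a difference of -0.47 with a 95% interval of -0.87 to -0.07 that did not pass (limma adjusted p = 0.424).

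A second, dimmer probe carried the LGR5 symbol and pointed the other way. It read -3.48, -3.72, -3.03 and -3.65 in the controls and -2.17, -2.94, -2.59 and -3.02 on day 4 after 7.4 Gy. These arrays all lay above the controls, and the rise of 0.79 ± 0.23 (SE), a 1.73-fold change, passed the test (limma adjusted p = 0.0205). Its changes in the 6 groups were all above 0, from 0.16 to 0.79. Those of the probe that stands for the gene were all below 0, from -0.47 to -0.18, but not under every alternative. The change of the gene turned above 0 under 2 of 42 alternatives at 6.7 Gy on day 4 (up to 0.07) and 3 of 42 at 7.4 Gy on day 4 (up to 0.45). On day 12 it did so under 2 of 40 at 6.7 Gy (up to 0.15) and 4 of 40 at 7.4 Gy (up to 0.30), and on day 7 under none. These counts include the mean over both probes, which holds the dimmer probe and gave the 0.07. The direction of LGR5 was therefore not settled by these probes. The rise of the dimmer probe passed under 31 of 41 alternatives. It was lost without control replicate 2 or 4 and without replicate 1 or 3 of 7.4 Gy day 4. Array position as a block, alone or with scan day, also lost it. So did normexp background correction, the 2-fold cut-off, the methods' t-test and the groups compared alone. The change of this probe ranged from 0.29 to 1.06 over the alternatives.

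ASCL2, the transcription factor that maintains the stem cell state and is itself a WNT target, was higher on day 4 at both doses. Its control values were -1.60, -2.21, -1.65 and -1.30. On day 4 it read -0.29, -0.53, -0.41 and -1.77 after 6.7 Gy, and -0.90, -0.18, -0.65 and -0.85 after 7.4 Gy. All arrays at 7.4 Gy and 3 of 4 at 6.7 Gy lay above every control, while replicate 4 of 6.7 Gy fell among the controls. The rise was 0.94 ± 0.29 (SE) at 6.7 Gy, 1.92-fold (limma adjusted p = 0.0429), and 1.05 ± 0.29 at 7.4 Gy, 2.07-fold (limma adjusted p = 0.0147).

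By day 7, ASCL2 read -1.61, -1.93, -1.44 and -1.10 after 6.7 Gy and -1.86, -1.97, -1.44 and -2.18 after 7.4 Gy. On day 12 it read -1.55 and -1.04 after 6.7 Gy and -1.61 and -1.73 after 7.4 Gy. These arrays overlapped with the controls in each group. From the highest, the group means ran -0.64 (7.4 Gy day 4), -0.75 (6.7 Gy day 4), -1.29 (6.7 Gy day 12), -1.52 (6.7 Gy day 7), -1.67 (7.4 Gy day 12), -1.69 (controls) and -1.86 (7.4 Gy day 7), and no neighbours in this order were farther apart than the larger of their SDs.

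The ASCL2 call at 6.7 Gy was close to the threshold. It was lost without any of 13 single arrays: with control replicates 1, 2 or 3 or replicates 1, 2 or 3 of its own group left out, the limma adjusted p was 0.071 to 0.121, and with 7 arrays of other groups (7.4 Gy day 4 replicate 3, 6.7 Gy day 7 replicates 1 and 3, and replicates 1 and 2 of 7.4 Gy on days 7 and 12) it was 0.0505 to 0.0526. The call at 7.4 Gy was lost without control replicate 2 (change 0.88, limma adjusted p = 0.0505). Within the slides that held both groups the difference was 0.43 and 1.20 at 6.7 Gy and 0.75 and 1.12 at 7.4 Gy. Within the 2 scan days it was 0.82 and 1.07 at 6.7 Gy, and within the scan day that held both groups it was 0.83 at 7.4 Gy. In array position 1, the 2 arrays of 6.7 Gy differed from the controls by 1.28. With position and scan day both fitted as blocks, the 2 calls were lost (changes 1.05 and 1.03, limma adjusted p = 0.0964 and 0.435).

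OLFM4, a secreted glycoprotein of crypt base cells, was near the detection limit of its probe. It was well above background on 0 of 4 control arrays, on 1 of 4 at 6.7 Gy and 2 of 4 at 7.4 Gy on day 4, and on no array of days 7 and 12. On day 4 after 7.4 Gy it read -2.45, -6.00, -7.72 and -8.06, against -6.95, -7.66, -7.66 and -8.37 in the controls. Replicates 1 and 2, the arrays on which the probe was well above background, lay above every control, and replicates 3 and 4 overlapped with the controls. The group means were -6.06 ± 2.57 (SD, n = 4) and -7.66 ± 0.58 (n = 4), and the comparison did not pass (limma adjusted p = 0.242). No fold is given, since the mean of the brighter group lay under the lowest signals that counted as above background.

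The next genes act on the WNT signal or report it. RNF43, a ubiquitin ligase that removes WNT receptors from the cell surface and so limits the signal, read 0.10, 0.03, 0.69 and 0.63 in the controls. It read -0.21, -0.74, 0.25 and 0.11 on day 4 after 7.4 Gy, where the groups overlapped. The difference of -0.51, with a 95% interval of -0.96 to -0.06, did not pass (limma adjusted p = 0.0985). In the other groups its change lay between -0.14 and 0.21. A second, dimmer probe for RNF43 lay below all controls on day 4 after 7.4 Gy (-4.54 to -4.16 against -4.09 to -3.41). It read changes between -0.58 and -0.19, none of which passed, and another was not above background on any array and was not tested.

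EPHB2, an ephrin receptor that keeps crypt cells in their place along the axis, changed by 0.43 at 6.7 Gy and 0.23 at 7.4 Gy on day 4, and neither passed (limma adjusted p = 0.175 and 0.443). Its group means ran from -3.20 ± 0.33 (SD, n = 4) in the controls to -2.72 ± 0.08 (n = 2) on day 12 after 6.7 Gy. Both day 12 arrays of 6.7 Gy, -2.67 and -2.78, lay above all controls (-3.55 to -2.85). That difference of 0.47 did not pass (limma adjusted p = 0.731).

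SOX9, a transcription factor of the crypt base and a WNT target, was above its control mean in all 6 groups. Its control values were -2.74, -2.44, -1.98 and -2.64. On day 4 it read -1.65, -1.36, -1.82 and -1.55 after 6.7 Gy and -1.04, -2.06, -1.68 and -2.45 after 7.4 Gy. All arrays at 6.7 Gy lay above the controls, while those at 7.4 Gy overlapped with them. The rise at 6.7 Gy was 0.85 ± 0.24 (SE), 1.81-fold (limma adjusted p = 0.0279), and the change of 0.64 at 7.4 Gy did not pass (limma adjusted p = 0.0606).

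On day 7, SOX9 read -1.69, -1.84, -1.78 and -1.35 after 6.7 Gy and -2.09, -1.36, -1.88 and -1.76 after 7.4 Gy. On day 12 it read -1.65 and -1.71 after 6.7 Gy and -2.11 and -2.18 after 7.4 Gy. After 6.7 Gy every array of every day lay above all controls. The day 7 changes of 0.78 (95% interval 0.29 to 1.28) and 0.68 (0.18 to 1.17) were about as large as those on day 4 and did not pass (limma adjusted p = 0.187 and 0.251). Neither did the day 12 changes of 0.77 and 0.31 (limma adjusted p = 0.589 and 0.901). The SOX9 levels of day 7 and day 4 differed by -0.02, with a 95% interval of -0.37 to 0.33.

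A second probe for SOX9 showed smaller changes, between 0.05 and 0.29, and none passed. With the mean of both probes the change at 6.7 Gy on day 4 was 0.57 and did not pass (limma adjusted p = 0.10), nor did it with normexp background correction (0.57, limma adjusted p = 0.103). The call was also lost without control replicate 1 or 4 or without replicate 1, 2 or 4 of its own group (limma adjusted p = 0.051 to 0.0782), with array position as a block (change 0.94, limma adjusted p = 0.0663) and with position and scan day together (0.82, limma adjusted p = 0.165). The change at 7.4 Gy on day 4 passed without control replicate 3 (limma adjusted p = 0.0307) or without replicate 4 of its own group (0.0159). Within the slides that held both groups the difference at 6.7 Gy was 0.89 and 0.92, and within the 2 scan days it was 0.80 and 0.91.

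The last genes are WNT targets that many cell types use. MYC, the transcription factor that drives growth and division, read 0.21, -0.15, 0.06 and 0.31 in the controls. On day 4 it read 0.48, 1.22, 0.27 and 0.10 after 6.7 Gy and 0.42, 0.64, 0.49 and 0.21 after 7.4 Gy, so that the groups overlapped. The changes of 0.41 and 0.33 did not pass (limma adjusted p = 0.18 and 0.235), and a second probe read 0.47 and 0.30. On day 12 after 6.7 Gy both arrays, 0.80 and 0.58, lay above all controls, and that change of 0.58 did not pass (limma adjusted p = 0.616). With spike-in scaling, which moved the median of all probes by 0.20 and 0.27 on day 4 and by 0.35 on day 12 after 6.7 Gy, these 3 MYC changes passed (limma adjusted p = 0.0378, 0.0231 and 0.0435). With array position as a block, the day 4 changes were 0.74 and 0.99 and passed (limma adjusted p = 0.0357 and 0.039). That fit took its position effect from the 6.7 Gy day 4 arrays alone, where replicate 2 read 1.22. The value of 0.99 therefore carried an offset from the other dose, and position was not separated from slide and scan day.

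CD44, the hyaluronan receptor found on crypt base cells and also on leukocytes and stromal cells, was higher on day 4. It read -0.38, 0.53, 0.51 and 0.37 in the controls. On day 4 it read 1.02, 1.36, 0.85 and 0.63 after 6.7 Gy and 1.11, 0.89, 1.38 and 1.03 after 7.4 Gy. All arrays of both doses lay above all controls. The rise at 7.4 Gy was 0.84 ± 0.23 (SE), 1.79-fold (limma adjusted p = 0.0151), and the change of 0.71 at 6.7 Gy did not pass (limma adjusted p = 0.0584).

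On day 7, CD44 read 0.10, 0.71, 0.39 and 0.18 after 6.7 Gy and 0.25, 0.45, 0.35 and -0.47 after 7.4 Gy. On day 12 it read 0.47 and -0.06 after 6.7 Gy and 0.27 and 0.40 after 7.4 Gy. All these groups overlapped with the controls. In the order of the group means, the step from 0.97 (6.7 Gy day 4) to 0.35 (6.7 Gy day 7) exceeded the larger SD of these groups, 0.31, and the means of all later groups and the controls lay between 0.14 and 0.35.

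The second CD44 probe read -0.10, -0.07, 0.05 and -0.34 in the controls, 0.23, 1.40, 0.33 and 0.07 on day 4 after 6.7 Gy, and 0.72, 0.30, 0.54 and 0.18 after 7.4 Gy. Its arrays of both doses also lay above all controls, and its changes of 0.62 and 0.55 did not pass (limma adjusted p = 0.159 and 0.167). On days 7 and 12 this probe read below control, with changes of -0.33 and -0.39 on day 7 and -0.40 and -0.30 on day 12, where the first probe read 0.09, -0.12, -0.06 and 0.08. None of these passed. The CD44 call at 7.4 Gy was lost without control replicate 1, the lowest control (change 0.63, limma adjusted p = 0.0565), without replicate 3 of its own group (0.75, limma adjusted p = 0.0507), with slide as a block (0.64, limma adjusted p = 0.0831) and with position and scan day together (1.11, limma adjusted p = 0.30). The change at 6.7 Gy passed without replicate 4 of its own group (limma adjusted p = 0.0443) or replicate 4 of 7.4 Gy day 7 (0.035), with position (0.0449) or scan day (0.0487) as a block, with median (0.0336) or spike-in scaling (0.0223), and with a stricter filter on dim probes (0.0462). Within the slides that held both groups the difference at 7.4 Gy was 0.52 and 0.60, and within the scan day that held both it was 0.66.

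**Figure D3:**
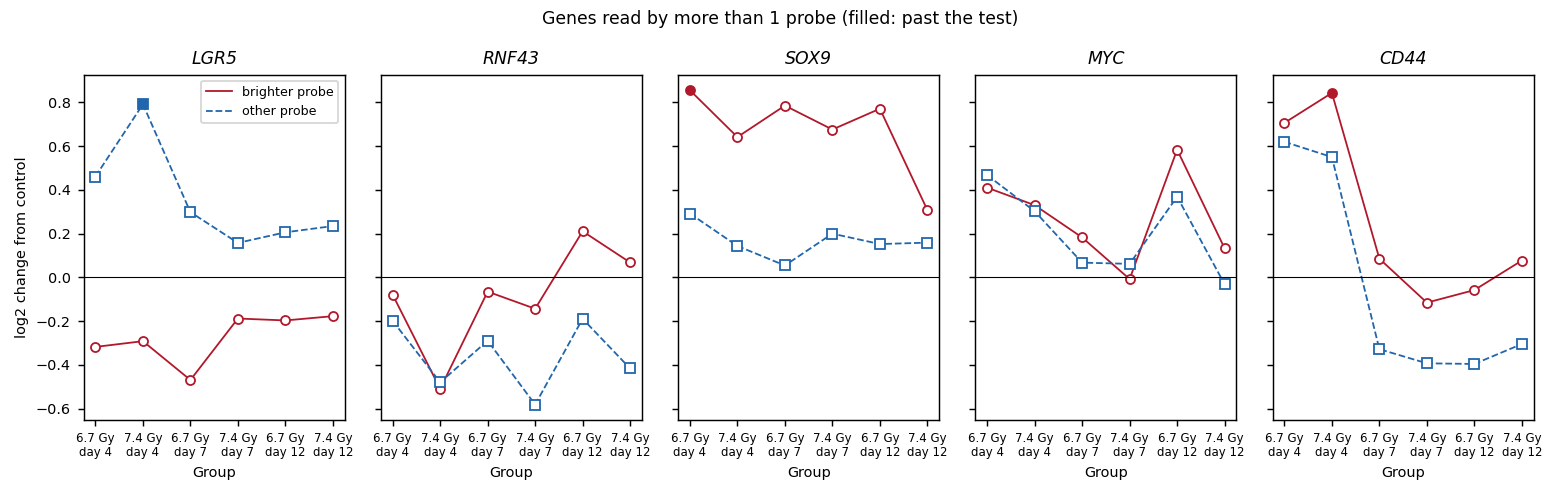
Log2 change from control (vertical axis) in the 6 irradiated groups (horizontal axis) for the 5 genes read by more than 1 tested probe; the solid line is the probe that stands for the gene and the dashed line the other probe, and filled symbols passed the test. Both CD44 probes were above 0 on day 4 and 1 of them lay lower on days 7 and 12, the SOX9 probes differed in size, and the LGR5 probes lay on opposite sides of 0.

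The methods of the study asked for a 2-fold change as well. Under that rule, ASCL2 at 7.4 Gy on day 4 was the 1 gene of the 8 that passed, where 7.04% of all probes did, and none passed at 6.7 Gy, where 3.61% did.

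The days were then compared with each other over both doses, which does not involve the controls. ASCL2 and CD44 were lower on day 7 than on day 4, as 2 of 8 genes, where 11.4% of all probes were lower and 14.6% higher. No gene of the group was higher. ASCL2 differed by -0.997 ± 0.20 (SE), with a 95% interval of -1.42 to -0.57 (limma adjusted p = 0.00152). Of its 8 day 4 arrays, 7 lay above all day 7 arrays. CD44 differed by -0.79 ± 0.16 (limma adjusted p = 0.00177), and its second probe by -0.94 ± 0.19 (limma adjusted p = 0.0017), with no overlap between the days for that probe. Within each of the 6 slides, all of which held both days, the difference was below 0 for both genes, from -1.39 to -0.28 for ASCL2 and from -0.95 to -0.50 for CD44.

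The same genes were lower on day 12 than on day 4, again 2 of 8, where 9.92% of all probes were lower and 14.5% higher. ASCL2 differed by -0.79 ± 0.25 (limma adjusted p = 0.0261) and CD44 by -0.76 ± 0.20 (limma adjusted p = 0.00949), and all day 12 values of CD44 lay below all day 4 values. The ASCL2 call was lost without 6.7 Gy day 12 replicate 1 (-0.66, limma adjusted p = 0.128), 7.4 Gy day 12 replicate 1 (-0.81, limma adjusted p = 0.0627) or 7.4 Gy day 12 replicate 2 (-0.76, limma adjusted p = 0.0808), and that of CD44 without 6.7 Gy day 12 replicate 2 (-0.63, limma adjusted p = 0.0626). Under the 2-fold rule none of the 8 passed in either comparison, where 4.44% of all probes passed between days 7 and 4 and 6.5% between days 12 and 4. Between days 12 and 7 none passed, where 0.191% of all probes did, and 0 of the 8 reached an unadjusted p under 0.05, against 9.6% of all probes.

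Between the doses, none of the 8 genes passed on any day, as 0% of all probes did on days 4, 7 and 12. None reached an unadjusted p under 0.05, against 6.17%, 1.86% and 3.67% of all probes, and the methods' t-test passed 0 of the 8 on each day. The differences between 7.4 and 6.7 Gy on day 4 were 0.11 for ASCL2 (95% interval -0.49 to 0.70), -0.21 for SOX9 (-0.71 to 0.28) and 0.14 for CD44 (-0.35 to 0.62). The lowest p was that of RNF43 on day 4, with a difference of -0.43 and an interval of -0.88 to 0.02. A gene that passed at 1 dose and not at the other was thus not shown to differ between the doses.

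Other genes of the crypt and of the pathway were counted by the same test. The background for the day 4 counts that follow is the share of all probes that rose, 4.49% at 6.7 Gy and 8.33% at 7.4 Gy, and the share that fell, 5.21% and 11.6%, and a list count near that share says nothing particular about the list. Of 13 measured genes of the crypt stem and progenitor list, 3 rose and 2 fell at 6.7 Gy on day 4, and 4 rose and 1 fell at 7.4 Gy, with medians of 0.27 and 0.07. EPHB3, a relative of EPHB2 in the crypt, rose by 0.94 and 1.03 (limma adjusted p = 0.00575 and 0.00113), and the adhesion molecule ALCAM by 0.58 and 0.84 (limma adjusted p = 0.0114 and 0.000368). PROM1, a membrane protein (CD133) that is found on stem cells and on other epithelial cells, fell, with log2 changes of -2.78 and -3.36 (limma adjusted p = 0.00169 and 0.000108).

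Of 13 measured genes of the WNT target and feedback list, 1 rose at 6.7 Gy and 2 rose at 7.4 Gy on day 4, none fell, and the medians were 0.18 and 0.43. LEF1, a transcription factor that works with beta-catenin and is itself a WNT target, also in lymphocytes, rose by 1.45 and 1.30 (limma adjusted p = 0.00173 and 0.0012). CCND1, cyclin D1, rose by 1.20 at 7.4 Gy (limma adjusted p = 0.000492), and its change of 0.68 at 6.7 Gy, where 1 of 4 arrays had no value, did not pass (limma adjusted p = 0.051). Of 18 measured genes of the WNT receptors and beta-catenin machinery, 1 fell at 6.7 Gy and 4 fell at 7.4 Gy, none rose, and the medians were -0.12 and 0.04. Among them the receptors FZD5 and FZD8 and the adaptor DVL2 fell at 7.4 Gy, with changes of -0.71, -0.57 and -0.46 (limma adjusted p = 0.00155, 0.00978 and 0.0229). No gene of these 3 lists passed against control on days 7 and 12.

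Of 9 measured genes of the YAP and injury-response list, a programme known from regenerating epithelium, 4 rose and none fell at each dose on day 4, with medians of 0.75 and 1.46. Among them were TEAD4, the DNA-binding partner of YAP (1.46 at both doses, limma adjusted p = 0.00265 and 0.000855), CCN1 (1.96 and 1.84, limma adjusted p = 0.0189 and 0.0142) and ANXA1 (0.96 and 1.89, limma adjusted p = 0.0378 and 0.000427). At 7.4 Gy, ANXA1 had a value on 3 of 4 arrays. Of the 9 YAP and injury-response genes, 2 were well above background on no control array, and 2 on no array of 6.7 Gy day 4. The medians of that list include them. Of 8 measured genes of cycling cells, 3 rose and none fell at each dose, with medians of 0.73 and 0.66: TYMS (1.16 and 1.67, limma adjusted p = 0.00887 and 0.000235), PCNA (0.74 and 0.87, limma adjusted p = 0.0337 and 0.00789) and AURKA (1.06 and 0.99, limma adjusted p = 0.0367 and 0.0311). Of 5 measured genes of the Notch pathway and secretory fate, 1 fell at 6.7 Gy and 2 at 7.4 Gy. These were ATOH1, the factor of secretory cells, with changes of -1.32 and -2.17 (limma adjusted p = 0.0343 and 0.000737), and HEY1, with -0.81 at 7.4 Gy (limma adjusted p = 0.0325).

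**Figure D4:**
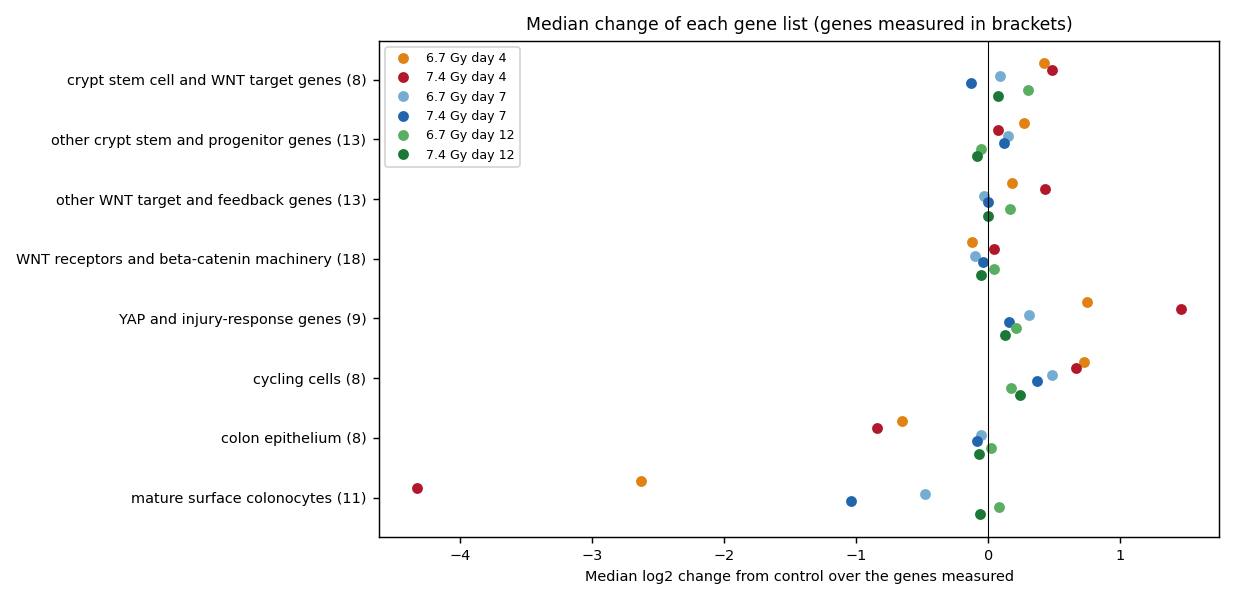
Median log2 change from control (horizontal axis) over the measured genes of each list (vertical axis, number of genes in brackets) in the 6 irradiated groups. The crypt stem cell and WNT target genes had medians of 0.42 and 0.49 on day 4, on the other side of 0 from the mature surface colonocyte genes at -2.63 and -4.33. The medians of 0.42 and 0.49 include OLFM4, which was not well above background on any control. The same held for 1 gene of the other crypt stem and progenitor list and 2 genes of the YAP and injury-response list.

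Marker levels of other cells of the tissue moved at the same time as the crypt genes. Of 11 markers of mature surface colonocytes, 8 fell at 6.7 Gy and 10 at 7.4 Gy on day 4, and none rose. Their mean level ranged from 3.79 to 4.13 in the controls, from 0.34 to 1.90 at 6.7 Gy and from -1.40 to 1.77 at 7.4 Gy on day 4, from 1.27 to 3.96 on day 7 over both doses, and from 3.65 to 4.06 on day 12. Of 8 markers of the colon epithelium as a whole, 5 fell at each dose on day 4, with mean levels of 4.76 to 4.92 in the controls and 3.69 to 4.44 and 3.78 to 4.18 after 6.7 and 7.4 Gy. The mean level of the epithelial markers was 4.57 to 4.95 on day 7 over both doses. ASCL2 and CD44 were thus higher on the day when epithelial markers were lower, while SOX9 was about as far above its control mean on day 7 as on day 4.

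Markers of cells that can carry CD44 also moved on day 4. Of 5 neutrophil markers, none passed at 6.7 Gy, while 3 rose and 1 fell at 7.4 Gy. Their mean level was -3.41 to -2.46 in the controls, -2.71 to -0.89 at 6.7 Gy and -2.62 to -0.23 at 7.4 Gy on day 4. Of 7 fibroblast markers, 5 rose at 7.4 Gy and none passed at 6.7 Gy, and their mean level was 1.92 to 2.68 in the controls and 2.10 to 2.95 and 2.93 to 3.45 at 6.7 and 7.4 Gy. None of the markers of macrophages and monocytes (5), T lymphocytes (7) or B lymphocytes (4) passed against control in any group. No marker of the neutrophil or fibroblast lists was below background on all arrays of a day 4 group. The part of any of these cells in the levels of CD44, MYC and the other crypt genes was not tested.

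Across the 24 arrays, ASCL2 ran most closely with CD44 (Pearson r = 0.63) and MYC (r = 0.63), and MYC with CD44 at r = 0.48. LGR5 correlated with ASCL2 at -0.10 and with SOX9 at -0.28. The arrays share the 7 groups and their scaling, so these values describe the data and were not tested. The named genes whose levels ran most like each gene were BIN1 (r = 0.88 over 24 arrays) and SNRPN (0.86 over 21) for ASCL2, CLEC2B and EGR2 (both 0.89 over 24) for CD44, LRRC8A (0.81) and BCL6 (0.80) for MYC, and TARBP1 (0.74) and CHCHD6 (0.71) for SOX9. For LGR5 they were FERD3L (0.80) and PEX5L (0.78), for RNF43 ZBTB44 (0.75) and DSP (0.70), for EPHB2 FAU (0.77 over 21) and LBR (0.75 over 20), and for OLFM4 HTRA1 (0.70 over 22) and ABCB5 (0.70). OLFM4 was well above background on 3 of the 24 arrays, so its values of r rest mostly on values that were not.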

How the data were processed

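The colon arrays of 24 animals were 1-colour Agilent rhesus arrays, 1 per animal. Per the file headers, the authors extracted spot intensity values with Feature Extraction, which subtracted local background and corrected spatial trends. Of the 2 tables the authors deposited for the series, the raw one held the same intensities (log2 within 0.001 of the scanner files for 100% of values) and the normalized one held log2 values, shifted to the 75th percentile of each array and centred on each probe's median.

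Here control spots were left out, outlier spots (24 to 712 per array) were set to missing, spots of a probe were averaged, and the log2 processed signal minus the array's 75th percentile was fitted in limma 3.58.1 (R 4.3.3) with 1 mean per group. A MYC probe lacked 1 value. Probes well above background on at least 2 arrays entered (38229, of which 38209 could be fitted). No spot was saturated. Names came from the series tables for 18640 probes and from RefSeq, by gene ID or accession, for 3184 and 84; 1850 had a LOC number only and 19845 none. No genome sequence was used.

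The members and lists were chosen with earlier results of these data known. Named are all members, up to 3 genes of each other list with the lowest adjusted p, and the 2 genes most correlated with each member. The fit was tested on simulated data. The arrays' number limits the precision, and the p-values measure the spread between these animals. Alternatives changed the background correction, the scaling, the filter, the threshold or the test, added blocks for slide, position, scan day and replicate number, fitted the groups alone, or left out each array in turn.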

Additional observations from a re-analysis of the deposited data

Results flagged for a closer look

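A single animal stood apart from the other 3 of its group, by Dixon's criterion, in 6 of the 70 sets of 4 values checked over all probes, and chance flags about 1 set in 20. They were ASCL2 in 6.7 Gy day 4 replicate 4 (-1.77, the others -0.53 to -0.29), EPHB2 in 6.7 Gy day 4 replicate 2 (-3.25, the others -2.64 to -2.53), a dimmer RNF43 probe in 7.4 Gy day 4 replicate 1 (-4.54, the others -4.21 to -4.16), the second SOX9 probe in 6.7 Gy day 7 replicate 4 (-3.27, the others -4.00 to -3.88), and the second MYC probe in 6.7 Gy day 4 replicate 2 (1.0, the others 0.20 to 0.30) and 6.7 Gy day 7 replicate 4 (-0.63, the others 0.19 to 0.32). The levels of ASCL2 and CD44 differed between days over both doses by the limma contrast of the days: ASCL2 by -0.997 between days 7 and 4 and by -0.79 between days 12 and 4, and CD44 by -0.79 and -0.76.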

How the results depend on the processing

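No called change of a member turned its direction under any alternative. On day 4 the counts of members passing, 2 of 8 at each dose, became 4 at each with spike-in scaling, which also passed 1 member on day 12 after 6.7 Gy. At 6.7 Gy the count was 1 with normexp, without a filter on dim probes, with the replicate block or with the mean over a gene's probes, and 0 with the 2-fold cut-off, the methods' t-test, the groups alone, or position and scan day as blocks. At 7.4 Gy it was 1 with the 2-fold cut-off, the t-test or slide as a fixed block, and 0 with position and scan day. Between days 7 and 4 it was 0 with the 2-fold cut-off. Between days 12 and 4 it was 0 with the cut-off, 1 with the groups alone or the replicate block, and 3 with normexp or spike-in scaling, where RNF43 was higher (limma adjusted p = 0.00842 and 0.039). Counts also rose to 3 between days 7 and 4 with spike-in scaling, at 6.7 Gy on day 4 with median scaling, the stricter filter, position or scan day, and at 7.4 Gy on day 4 with quantile normalization, the stricter filter or position. Leaving out 1 array gave 0 to 3 at 6.7 Gy and 1 to 3 at 7.4 Gy on day 4, 2 between days 7 and 4, 1 to 2 between days 12 and 4, and 0 in every other comparison. The replicate numbers did not pair the animals (deviations of same-numbered arrays correlated at -0.23 to 0.24, median 0.00). With the replicate block, ASCL2 lost its calls at 6.7 Gy on day 4 (limma adjusted p = 0.0583) and between days 12 and 4 (0.0533). Deviations of arrays on the same slide correlated at a median of 0.12, against -0.02 for arrays on other slides, and the main fit held no term for slide. Over all probes, the number past the test on day 4 was 3703 at 6.7 Gy (1150 with the t-test) and 7629 at 7.4 Gy (541 with position and scan day). The cause of these shifts was not tested. Spike-in scaling moved the median of all probes against control by 0.11 to 0.35. It moves all probes of an array by the same amount, so the members' changes relative to that shift equal the main ones by construction. Position could not be fitted as a block for days 7 and 12 against control or day 4. For 7.4 Gy on day 4 against control, the position effect came from the 6.7 Gy day 4 arrays alone. OLFM4 was limited by signal over background.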
